A study of Anas platyrhynchos with 5 samples.

Results

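Black and white feather bulbs of the second-generation (F2) offspring of a Kaiya and Liancheng duck cross (Anas platyrhynchos) were compared miRNA by miRNA. The bulb is the living base of a growing feather, and Kaiya and Liancheng are both white breeds. The comparison uses 2 of the 5 small RNA libraries of the study: F2 black (black bulbs, labelled B-wb) and F2 white (white bulbs, labelled W-wb), chosen by their labels. The other 3 libraries were made from black bulbs of the Cui Hei breed and from white bulbs of the Kaiya and Liancheng breeds, and all ducks were 12 months old. Per the design text, 3 bulbs of a duck were pooled, and the ducks of a breed were then pooled into 1 library. The labels give the plumage of both F2 libraries as white-black, and do not say whether black and white bulbs came from the same birds or how many birds were pooled. With 1 library a side there is no replicate spread and no test. Every difference is given as a log2 ratio of F2 black over F2 white with a 95% interval that covers counting error only. The reads carry no molecular identifiers, so amplified copies count as separate reads and the intervals may be too narrow.

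miRNAs are cut from hairpin precursors whose 5p and 3p arms can each give a mature strand, and the seed, bases 2 to 8 of that strand, largely decides which transcripts it pairs with. miRNAs that share a seed are grouped as families, and hairpins that lie close together in the genome are often transcribed as 1 cluster. In mammals miR-204 and its seed partner miR-211 are the best known miRNAs of pigment cells. miR-211 lies in an intron of the melanocyte gene TRPM1 and is driven by the transcription factor MITF. A growing feather bulb holds keratinocytes, the mesenchymal pulp with its blood vessels and, in pigmented feathers, melanocytes that pass melanin to the keratinocytes.

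The mature sequences below, as the deposited tables list them, belong to the miRNAs with the largest ratios in either direction. Capitals mark the seed. The first 3 were higher in F2 black by a log2 ratio of at least 1, and miR-6564-3p and miR-10b-2-5p were lower by as much. miR-10b-1-5p is shown because it differs from miR-10b-2-5p by the single substitution A12U (positions counted from the 5′ end), so the 2 share a seed. In other vertebrates the sequence listed as miR-10b-2-5p is called miR-10a.
miR-204-5p: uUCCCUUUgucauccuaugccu
miR-204-3p: gCAGGGACagcaaagggaugcuc
miR-187-3p: uCGUGUCUuguguugcagccag
miR-10b-2-5p: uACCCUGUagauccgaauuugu
miR-10b-1-5p: uACCCUGUagaaccgaauuugu
miR-6564-3p: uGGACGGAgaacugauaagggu

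The next set holds other miRNAs among the highest and lowest ratios with at least 200 reads, all short of that size. miR-144-3p and miR-2188-5p are grouped with the red blood cells here, miR-196 is a miRNA of the HOX gene clusters as miR-10 is, and the last 5 were lower in F2 black.
miR-144-3p: uACAGUAUagaugauguacucc
miR-2188-5p: aAGGUCCAaccucacauguccu
miR-196-1,2,3-5p: uAGGUAGUuucauguuguuggga
miR-460a-5p: cCUGCAUUguacacacugugugu
miR-30e-2-3p: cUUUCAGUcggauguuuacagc
miR-125b-3p: aCAAGUCAggcucuugggacc
miR-146b-1,2-5p: uGAGAACUgaauuccauggacug
miR-181b-1,2-5p: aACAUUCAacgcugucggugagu
miR-148a-3p: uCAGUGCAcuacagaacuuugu

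The F2 black library held 1988317 miRNA reads and the F2 white library 2843291, against 1601329 to 4269854 in the other 3. Of 134 mature names, 104 had at least 50 reads in the F2 libraries together and carried 99.99% of their reads. The F2 white library stood further from the rest than the F2 black library did. Leaving out miR-204, the median absolute log2 distance of a miRNA from the median of the other 4 libraries was 0.154 in F2 black and 0.280 in F2 white, and it lay between 0.165 and 0.189 in the pure breeds. F2 black was the library farther from the median of the 3 pure breeds for 26 of 103 miRNAs, and F2 white for 77. For 7 miRNAs the F2 black level alone lay outside the range of the pure breeds, for 23 the F2 white level alone, for 42 both and for 31 neither. The levels in the pure breeds are therefore given beside the main results. Names follow the deposited lists, although some sequences bear another number in other vertebrates, which is given where it matters. All levels are CPM, reads scaled to a common library total, after adjustment of the totals by trimmed mean of M-values (TMM).

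Most miRNAs differed little between black and white F2 bulbs. Of the 104 miRNAs, 51 had a positive ratio and 53 a negative one, 83 (79.8%) lay within 0.5 of 0 on the log2 scale, and the median ratio was -0.05. At a log2 ratio of at least 1, the size criterion of the study, 3 miRNAs (2.88%) were higher in F2 black and 2 (1.92%) were lower, 4.81% in either direction. The other scalings tried shifted every ratio by the same amount, between -0.18 and 0.18, so small ratios have no fixed sign: 28 miRNAs were higher and 40 lower under all 7 scalings. The counting interval excluded 0 for 72 miRNAs, 31 higher and 41 lower in F2 black, but at this depth counting error is smaller than the shift between scalings for the abundant ones. Of the 23 miRNAs with at least 20000 reads, 10 had a positive ratio and 13 a negative one, with a median absolute log2 ratio of 0.188. The 16 with fewer than 200 reads had a median of 0.229, so the spread was not confined to rare miRNAs. The remaining 30 names had under 50 reads and are left out of these counts. The same 10 miRNAs were the most abundant in both libraries, with 70.9% of the reads in F2 black and 71.4% in F2 white.

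**Figure D1:**
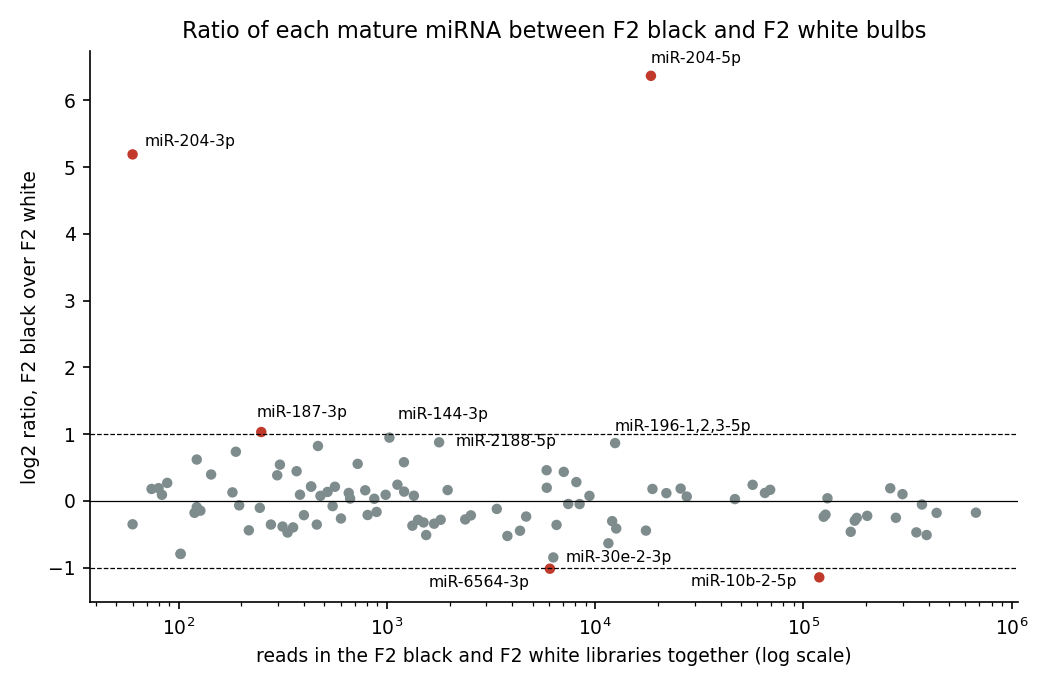
Each point is 1 of 104 mature miRNAs, with its reads in the F2 libraries together on a log axis against its log2 ratio of F2 black over F2 white. Red points lie at or beyond 1 or -1 (dashed lines): miR-204-5p at 6.37 and miR-204-3p at 5.19 stand far above the rest, whose ratios lie between -1.15 and 1.03.

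miR-204 was the one hairpin with a large difference. miR-204-5p had 18237 reads in F2 black and 278 in F2 white, a log2 ratio of 6.37 (95% interval 6.20 to 6.55) or 82.7-fold. Its level was 8785 CPM in F2 black against 106 CPM in F2 white, with 11695 CPM in Cui Hei, 104 CPM in Kaiya and 120 CPM in Liancheng. Both black libraries lay far above the 3 white ones. The minor arm, miR-204-3p, had 58 reads in F2 black and 2 in F2 white, a log2 ratio of 5.19 with a wide interval (3.27 to 8.27). In these bulk pools fewer cells of a type and less RNA per cell cannot be told apart, which holds for this and every ratio that follows.

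The other miRNA higher in F2 black by the size criterion, miR-187-3p, was rare. It had 154 reads in F2 black and 95 in F2 white, a log2 ratio of 1.03 (95% interval 0.65 to 1.41). Its level was 74.2 CPM in F2 black, 36.3 CPM in F2 white, 57.2 CPM in Cui Hei, 49.8 CPM in Kaiya and 60.7 CPM in Liancheng. The black and white breeds lay together between the F2 libraries, so the breeds did not sort by colour. Under upper-quartile scaling its ratio was 0.85, short of the criterion.

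The miRNAs of the HOX gene clusters, which in vertebrates set position along the body axis, went in opposite directions. miR-10b-2-5p had 31419 reads in F2 black and 87715 in F2 white, a log2 ratio of -1.15 (95% interval -1.17 to -1.13), which was -0.97 and short of the criterion when scaled by library size alone. Its level was 15135 CPM in F2 black and 33520 CPM in F2 white, against 42115 CPM in Cui Hei, 97514 CPM in Kaiya and 20345 CPM in Liancheng. F2 black had the lowest level of the 5 libraries, and the white parental breeds differed from each other more than the F2 libraries did, at a log2 ratio of 2.26 for Kaiya over Liancheng. The near-identical miR-10b-1-5p, the most abundant miRNA in both libraries, took 14.0% of the reads in F2 black and 13.9% in F2 white, and its log2 ratio was -0.18 (95% interval -0.18 to -0.17). Since 1 base separates the 2 sequences, how reads were divided between them rests on the authors' mapping. Summed over the seed they share, the log2 ratio was -0.31.

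miR-196-1,2,3-5p, encoded between HOX genes and known to target HOX transcripts, was higher in F2 black. It had 7362 reads in F2 black and 5094 in F2 white, a log2 ratio of 0.87 (95% interval 0.81 to 0.92). Its level was 3546 CPM in F2 black, 1947 CPM in F2 white, 4873 CPM in Cui Hei, 5154 CPM in Kaiya and 4712 CPM in Liancheng. Both F2 libraries lay below the 3 pure breeds, F2 white the lower, and black and white breeds did not separate. Of the 5 HOX miRNAs with at least 50 reads, 2 were higher and 3 lower in F2 black, and the summed ratio of -0.29 rests on miR-10b-1-5p and miR-10b-2-5p.

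miR-6564-3p was the other miRNA lower by the size criterion, and its sequence is that of miR-184, which in mice is found in the epithelium of cornea and skin. It had 1705 reads in F2 black and 4351 in F2 white, a log2 ratio of -1.02 (95% interval -1.10 to -0.94). Its level was 821 CPM in F2 black and 1663 CPM in F2 white, against 685 CPM in Cui Hei, 494 CPM in Kaiya and 2103 CPM in Liancheng. The F2 black library lay closer to Cui Hei and Kaiya and the F2 white library closer to Liancheng, so white bulbs held both the highest and the lowest level. The ratio reached -1 under the main scaling and upper-quartile scaling, and not under the 5 others, where it was as small as -0.84.

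The red blood cell miRNAs were higher in F2 black as a group. miR-144, which is induced by GATA1 in mammalian red cell precursors, and miR-2188 had 4 arms with at least 50 reads, and 4 of 4 were higher in F2 black. miR-144-3p had 621 reads in F2 black and 406 in F2 white, a log2 ratio of 0.95 (95% interval 0.76 to 1.13). miR-2188-5p had 1055 reads in F2 black and 724 in F2 white, a log2 ratio of 0.88 (95% interval 0.74 to 1.02). In the pure breeds the level of miR-144-3p was 348 CPM in Cui Hei, 191 CPM in Kaiya and 63.2 CPM in Liancheng. That of miR-2188-5p was 508 CPM in F2 black and 277 CPM in F2 white, against 630 CPM in Cui Hei, 538 CPM in Kaiya and 52.0 CPM in Liancheng. Both main arms were short of the size criterion here, and miR-144-3p passed it under 4 of the 6 other scalings. The minor arms were less far apart, at 0.44 for miR-144-5p and 0.62 for miR-2188-3p. Summed over the list the log2 ratio was 0.84, and between 0.66 and 1.02 over the scalings. miR-451, also on that list, was not analysed here.

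Across the 5 libraries 3 of the 4 arms, miR-144-3p, miR-144-5p and miR-2188-3p, had both black libraries, F2 black and Cui Hei, above each of the 3 white libraries. miR-2188-5p was the exception, with a higher level in Kaiya than in F2 black. Of the 103 miRNAs listed in each library, 7 had this order and 7 the opposite one. The summed level of the 4 arms was 932 CPM in F2 black and 520 CPM in F2 white, against 1118 CPM in Cui Hei, 835 CPM in Kaiya and 137.5 CPM in Liancheng. The sums sorted by colour too, but the white Kaiya library was close to F2 black, and the white breeds differed from each other by a log2 ratio of 2.60, more than the F2 libraries did. Red cells of birds keep their nucleus and carry RNA. Whether the pools differed in blood content, and whether that entered the other ratios, was not tested.

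Smaller differences towards F2 black came from unrelated single miRNAs. miR-460a-5p had 272 reads in F2 black and 194 in F2 white, a log2 ratio of 0.82 (95% interval 0.55 to 1.10). Its level was 131 CPM in F2 black, 74.1 CPM in F2 white, 74.9 CPM in Cui Hei, 24.3 CPM in Kaiya and 120 CPM in Liancheng, an order that again did not follow colour. miR-138-1,2-5p had a log2 ratio of 0.58, and miR-29c-3p, of a family that targets collagen transcripts in mammals, had 0.55. Next came miR-214-5p, which is transcribed with miR-199 in mesenchyme, at 0.54 and miR-193b-3p at 0.46. The brain-enriched miR-128-3p had 3653 reads in F2 black and 3409 in F2 white, a log2 ratio of 0.43. For miR-138-1,2-5p, miR-29c-3p, miR-214-5p, miR-193b-3p and miR-128-3p the F2 white level was the lowest of the 5 libraries. Among the rarer miRNAs, with fewer than 200 reads, an arm without a family number, shown here with its seed, was next.
Unnumbered arm: gGCUGUGCuguaaguguucccu
It had 107 reads in F2 black and 81 in F2 white, a log2 ratio of 0.74 (95% interval 0.31 to 1.17). F2 black, at 51.5 CPM, lay below both black Cui Hei (89.1 CPM) and white Liancheng (91.0 CPM), and the arm is not listed for Kaiya.

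**Figure D2:**
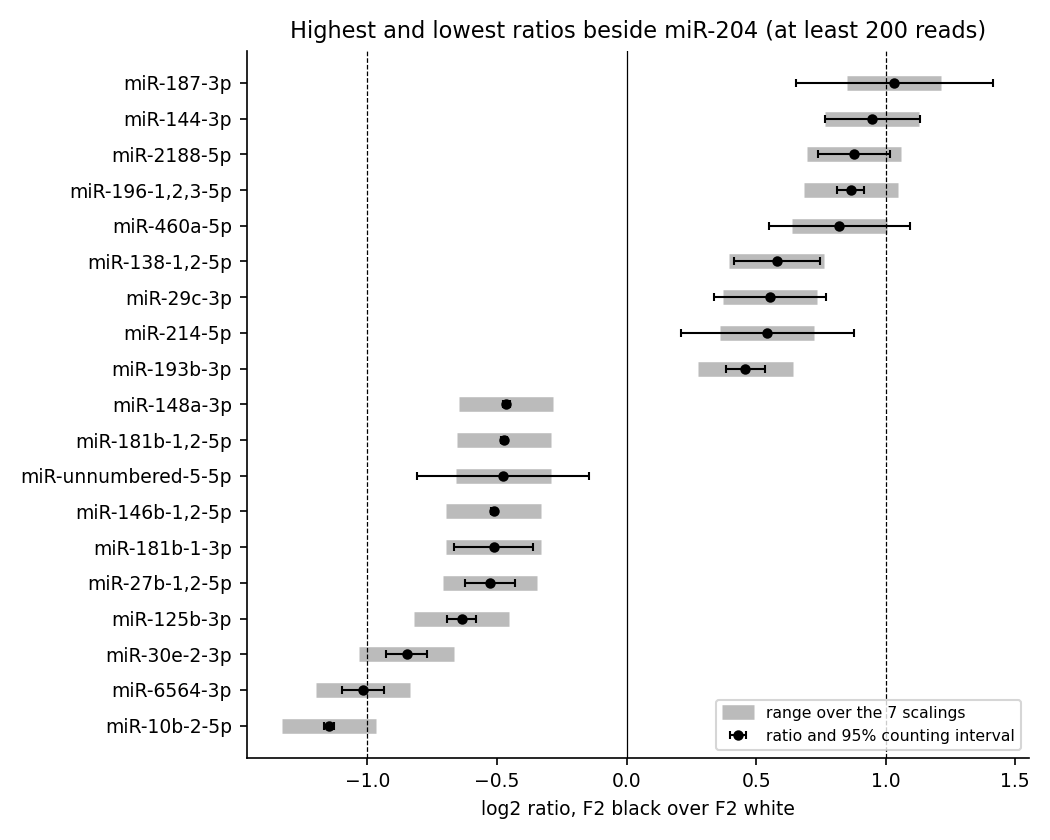
Points are the log2 ratios of F2 black over F2 white of the 9 highest and 10 lowest miRNAs with at least 200 reads, miR-204-5p left out, with 95% counting intervals as thin bars. Grey bars span the 7 scalings, and for abundant miRNAs such as miR-10b-2-5p they are much wider than the counting interval.

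The lower side held abundant miRNAs at modest ratios. miR-146b-1,2-5p, which in mammals dampens innate immune signalling, had 139503 reads in F2 black and 250900 in F2 white, a log2 ratio of -0.51 (95% interval -0.52 to -0.50). Its level was 67200 CPM in F2 black and 95881 CPM in F2 white, against 48706 CPM in Cui Hei, 60892 CPM in Kaiya and 58199 CPM in Liancheng. F2 white was the highest of the 5, and F2 black was itself above the pure breeds. The rare strand miR-146b-2-3p had a ratio of -0.08 (95% interval -0.33 to 0.17), which changed sign between scalings. Another miRNA of white blood cells, miR-142, is listed without a family number, and its strands are shown here.
miR-142 5p sequence: cAUAAAGUagaaagcacuacu
miR-142 3p sequence: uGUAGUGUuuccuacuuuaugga
The 5p strand had 1420 reads in F2 black and 1947 in F2 white, a log2 ratio of -0.12 (95% interval -0.22 to -0.02) that changed sign between scalings. The rarer 3p strand stood at 72.7 CPM in F2 black and 55.8 CPM in F2 white, a log2 ratio of 0.38 (95% interval 0.04 to 0.72). miR-223 and miR-155 were not analysed here.

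miR-181, best known from lymphocyte development, had 3 of 3 members lower in F2 black, at a summed log2 ratio of -0.47 (95% interval -0.48 to -0.46). Its main strand miR-181b-1,2-5p stood at 61048 CPM in F2 black and 84736 CPM in F2 white, against 72622 CPM in Cui Hei, 65655 CPM in Kaiya and 72860 CPM in Liancheng. Here the pure breeds lay between the F2 libraries. The passenger strands, which differ from each other by C16U, had ratios of -0.51 for miR-181b-1-3p and -0.34 for miR-181b-2-3p.

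miR-148a, whose main strand targets MITF in human melanoma cells, had both arms lower in F2 black. miR-148a-3p stood at 29660 CPM in F2 black and 40922 CPM in F2 white, a log2 ratio of -0.46 (95% interval -0.48 to -0.45). The pure breeds lay between 24247 CPM (Cui Hei) and 29220 CPM (Liancheng), so F2 white was again the highest. The 2 strands listed as miR-103, of a family with a role in lipid and insulin metabolism, had ratios of -0.45 each. They differ by G22C and 1 more base at the 3′ end, and the sequence listed as miR-103-2-3p is called miR-107 in other vertebrates. Their levels were likewise highest in F2 white, at 3106 CPM in F2 black and 4231 CPM in F2 white for miR-103-1-3p, with 3137 to 3470 CPM in the pure breeds.

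**Figure D3:**
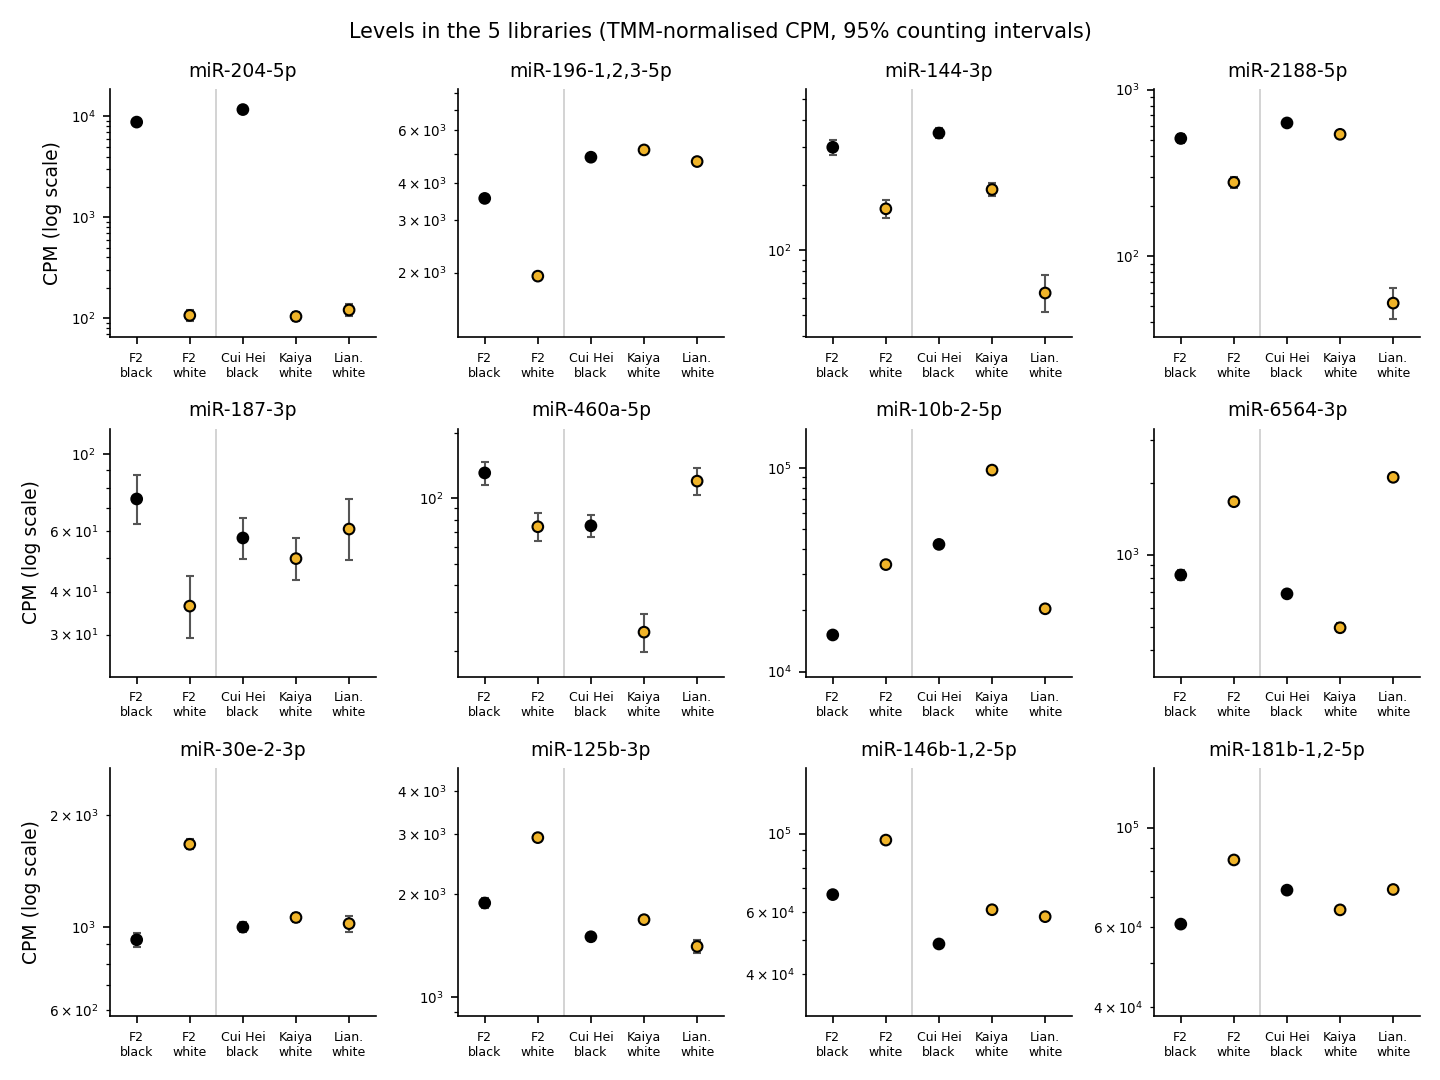
Each panel shows 1 miRNA in the 5 libraries as TMM-scaled CPM on a log axis whose range differs between panels, with 95% Poisson counting intervals. Black points are black bulbs and yellow points white bulbs, and the grey line parts the F2 libraries from the pure breeds. Of the 12 panels, miR-204-5p is the one where both black libraries lie far above every white one. For miR-144-3p they lie above by less.

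Over families named by number, 33 had at least 2 members with 50 reads. miR-204 was the only one whose summed reads reached the size criterion, at 6.36. Of the 33, 13 had a positive summed ratio and 20 a negative one, and under all 7 scalings 7 stayed higher and 17 stayed lower. The 7 are miR-204, miR-2188 (0.86), miR-144 (0.81), miR-128 (0.40), miR-214 (0.22), miR-18 (0.21) and miR-26 (0.19). The lowest were miR-146 (-0.51), miR-181 (-0.47), miR-148 (-0.46), miR-103 (-0.45), miR-6612 (-0.41), miR-449 (-0.36) and miR-9 (-0.35). Beyond miR-204, then, family ratios ran from -0.51 to 0.86, beside a median of -0.05 over all miRNAs.

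Within families the arms and copies did not always go together. In miR-30, 2 members were higher and 2 lower in F2 black, and the split ran by arm: both 5p strands, at 0.12 for miR-30e-2-5p and 0.04 for miR-30e-1-5p, against both 3p strands, at -0.85 for miR-30e-2-3p and -0.22 for miR-30e-1-3p. The 5p values are small enough to change sign under upper-quartile scaling. The 2 copies differ by 1 base on each arm (C13U in 5p, G18A in 3p), so their separate ratios rest on the authors' mapping. In miR-125 the major strand had a ratio of 0.18 and the minor strand one of -0.64. In miR-6612 the minor 5p strand had 0.39 from 73 reads in F2 black and 70 in F2 white, and the major 3p strand had -0.41.

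**Figure D4:**
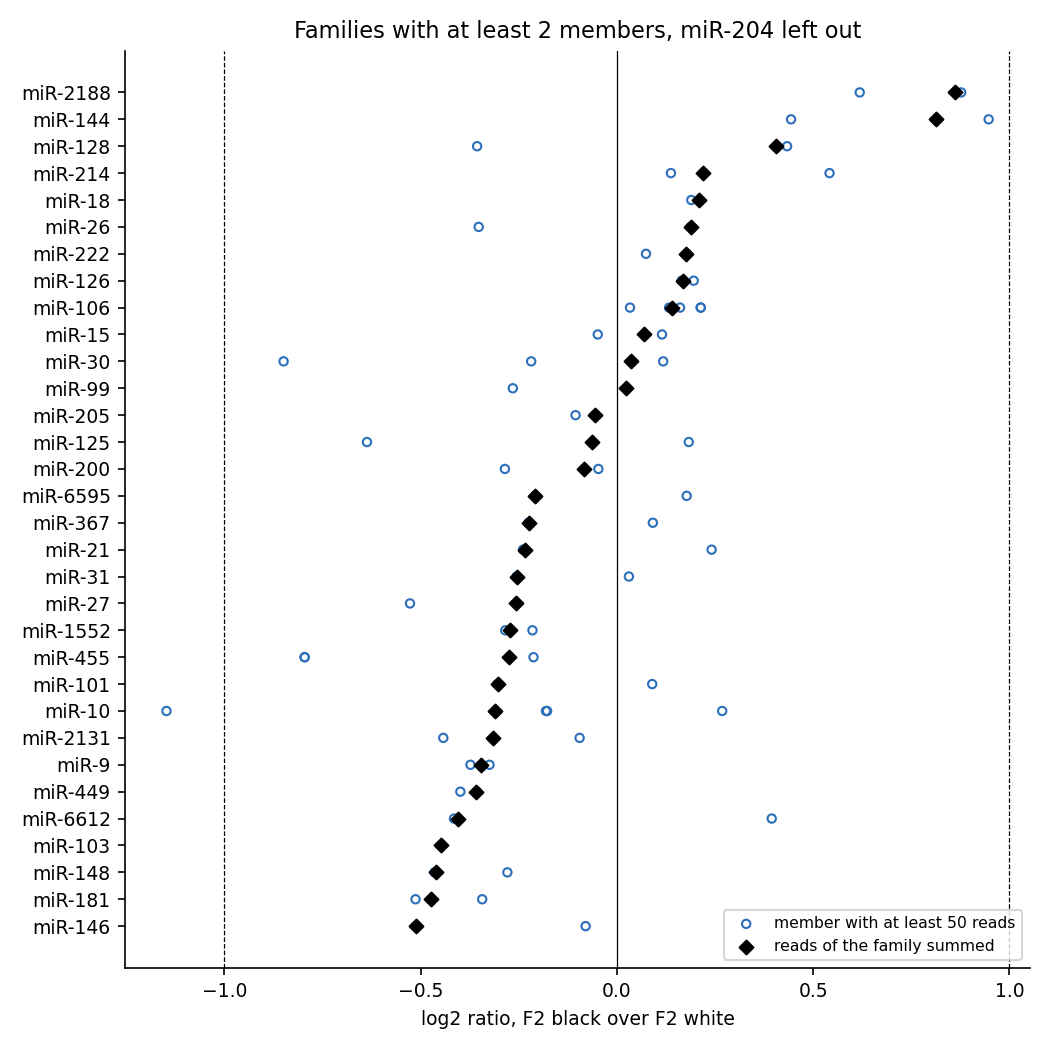
Filled diamonds give the log2 ratio of F2 black over F2 white of the summed reads of 32 families, miR-204 left out, and open circles give their members with at least 50 reads. The summed ratios run from miR-2188 at 0.86 to miR-146 at -0.51, and the widest spread of members is in miR-10, from -1.15 to 0.27.

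Of 23 hairpin clusters known from vertebrate genomes, 13 had at least 2 members with 50 reads and none of the 13 reached the size criterion. The cluster count is by name, since no coordinates of duck hairpins were used. The clusters of miR-144, miR-181, miR-214, miR-222, miR-367, miR-449, miR-15 and miR-30 held the members of a single named family each. Those of miR-144, miR-214, miR-222 and miR-367 held only the arms of a single hairpin. Such cluster ratios repeat the family ratios and are no separate measurement. Summed ratios of the 13 clusters were positive for 5 and negative for 8, and 2 stayed higher and 5 stayed lower under all scalings. The 2 were the cluster of miR-144 and miR-451 (0.81), described above, and that of miR-199 and miR-214 (0.22), for which the miR-214 arms alone carried those names. Among the 5 were the clusters of miR-181 (-0.47), of miR-34 and miR-449 (-0.36), of the HOX miRNAs (-0.29) and of miR-23b and miR-27b (-0.26). That of miR-34 and miR-449 holds by name only, since 53.7% of its reads came from miR-449c-2-5p, which has the sequence called miR-34a in other vertebrates. Without that strand only miR-449c-1-5p had at least 50 reads there. The fifth, by name that of miR-302 and miR-367 (-0.22), is no measurement of that cluster, since the strands listed as miR-367 have the sequences called miR-92a in other vertebrates.
miR-367-3p: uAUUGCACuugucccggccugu
It had 81820 reads in F2 black and 120553 in F2 white, a log2 ratio of -0.23 (95% interval -0.24 to -0.21).

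Membership was therefore also taken by sequence, a check chosen after seeing the data, with 7 hairpins placed under the number their sequence has in other vertebrates: miR-92, miR-140, miR-142, miR-143, miR-184, miR-199 and miR-203. Of 13 clusters 5 were then positive and 8 negative, 2 stayed higher and 6 stayed lower under all scalings, and none reached the size criterion. The 6 still include that of miR-34 and miR-449, since miR-449c-2-5p was not among the 7 hairpins placed by sequence. Some others whose sequences bear another number elsewhere, such as miR-103-2-3p, also kept their listed names. The cluster of miR-199 and miR-214, active in mesenchyme, had 4 of 4 strands higher in F2 black and a summed ratio of 0.24 (95% interval 0.22 to 0.27) from 32285 reads in F2 black and 34357 in F2 white. The miR-199 3p strand held 85.5% of those reads. miR-214-3p, at 0.14 (95% interval -0.03 to 0.30), changed sign under upper-quartile scaling, at -0.04. The smooth muscle and mesenchyme miRNA miR-143, listed as miR-6595, had a summed ratio of -0.21 (95% interval -0.22 to -0.19) from 52012 reads in F2 black and 75689 in F2 white.

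The cluster of miR-23b and miR-27b, with roles in vessel growth and in keratinocyte differentiation in mammals, was lower in F2 black in 3 of 3 members. miR-27b-3p had 110997 reads in F2 black and 166881 in F2 white, a log2 ratio of -0.25. miR-23b-3p had -0.36 and the minor strand miR-27b-1,2-5p had -0.53. The F2 white level was the highest of the 5 libraries for each of the 3, and miR-27b-3p stood at 53468 CPM in F2 black and 63773 CPM in F2 white, against 44158 to 47566 CPM in the pure breeds. miR-449c-1-5p, of a family that marks multiciliated cells in mammals and is related to miR-34, had a ratio of -0.40. The sequence listed as miR-449c-2-5p is called miR-34a in other vertebrates, and its ratio was -0.36. Reads were few, 327 in F2 black and 529 in F2 white for the family as named, and 53.7% of them were of miR-449c-2-5p.

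The proliferation-linked miR-17-92 and miR-106a-363 clusters had a summed ratio of -0.22 (95% interval -0.23 to -0.20) by sequence, with 95.6% of the reads from the miR-92a strand listed as miR-367-3p, and stayed lower under all scalings, from -0.40 to -0.04. By listed name, without miR-92a, the sum was -0.05 (95% interval -0.11 to 0.01) and changed sign between scalings, from -0.23 to 0.13. Of the 8 members by name, miR-19a-1,2-3p had 1875 reads in F2 black and 2783 in F2 white, and a log2 ratio of -0.24. The other 7 had positive ratios, but all were small, between 0.03 and 0.21, and 3 of the 7 changed sign under upper-quartile scaling. The names miR-106-2,3-3p and miR-106-3-3p overlap in sequence and had the same F2 reads, so the 7 are not separate measurements. The same holds for miR-455-1,2-3p and miR-455-2-3p, with 32 reads in F2 black and 70 in F2 white under both names and a log2 ratio of -0.80. The clusters of miR-200 and miR-429, which keep epithelial identity, had a summed ratio of -0.004, with miR-429-3p at 0.07 and miR-200a-3p at -0.05. The cluster of miR-221 and miR-222 had 0.18 and that of miR-15 and miR-16 had 0.07, and both changed sign under upper-quartile scaling, at -0.01 and -0.11.

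Grouping by seed in place of name gave 9 seeds shared by at least 2 miRNAs. The largest ratio among them was that of the miR-30e 3p strands, seed uuucagu, at -0.66 (95% interval -0.72 to -0.60). Next were the miR-103 seed gcagcau at -0.45, the miR-181b 3p seed ccaucga at -0.42 and the miR-449c seed ggcagug at -0.37. The miR-30e 5p seed guaaaca had 0.06, so both strands of the same hairpins differed in opposite directions under the main scaling. None of the 9 reached the size criterion.

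The share of a hairpin's reads that each arm gave differed between the F2 libraries for some hairpins. This measure needs no scaling between libraries. For 39 hairpins both arms reached 50 reads over the F2 libraries, and 14 of them had 5p shares whose 95% intervals did not overlap. The 39 are not all separate measurements, since mir-106-2 and mir-106-3 had the same reads, as had mir-455-1 and mir-455-2. Some others, such as mir-146b-2 and mir-27b-2, share the name of their 5p strand with another copy. In mir-30e-2 the 3p strand took 5.98% of the arm reads in F2 black (95% interval 5.73% to 6.25%) and 11.1% in F2 white (10.8% to 11.4%). The counts behind this were 1923 reads of miR-30e-2-3p in F2 black and 4366 in F2 white. The 3p share was 6.16% in Cui Hei, 5.93% in Kaiya and 6.24% in Liancheng, so F2 white stood apart from 4 libraries that lay together. Each strand of mir-30e-2 differs from that of mir-30e-1 by 1 base, so these shares rest on the authors' mapping. In mir-125b the 3p share was 24.3% in F2 black (23.6% to 24.9%) and 36.1% in F2 white (35.5% to 36.8%), against 19.5% in Cui Hei, 20.8% in Kaiya and 20.5% in Liancheng. Here F2 white was again the highest, and F2 black lay above the pure breeds as well.

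The arm shares of other hairpins differed too. In mir-144 the 3p share was 76.5% in F2 black and 69.6% in F2 white, and the white breeds bracketed both, at 68.8% in Kaiya and 79.1% in Liancheng. In mir-21, whose 5p strand is abundant in proliferating epithelium, the 3p share was 1.07% in F2 black and 0.768% in F2 white, the highest and the lowest of the 5 libraries. In mir-10b-2 the rare 3p strand took 0.156% in F2 black (49 reads) and 0.0797% in F2 white (70 reads). F2 black had the highest share of the 5 libraries, against 0.0588% to 0.0882% in the pure breeds. The 3p share of mir-128 was 97.2% in F2 black and 95.2% in F2 white. Among the 14 hairpins F2 black had the most extreme share of all 5 libraries in 2 and F2 white in 11, with 1 of them counted under both, and neither in 2. For 24 of the 39 hairpins the ratios of both arms had the same sign, and for 15 they had opposite signs. The arms of mir-204 differed by 1.18 on the log2 scale, which rests on 2 reads of the 3p arm in F2 white.

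**Figure D5:**
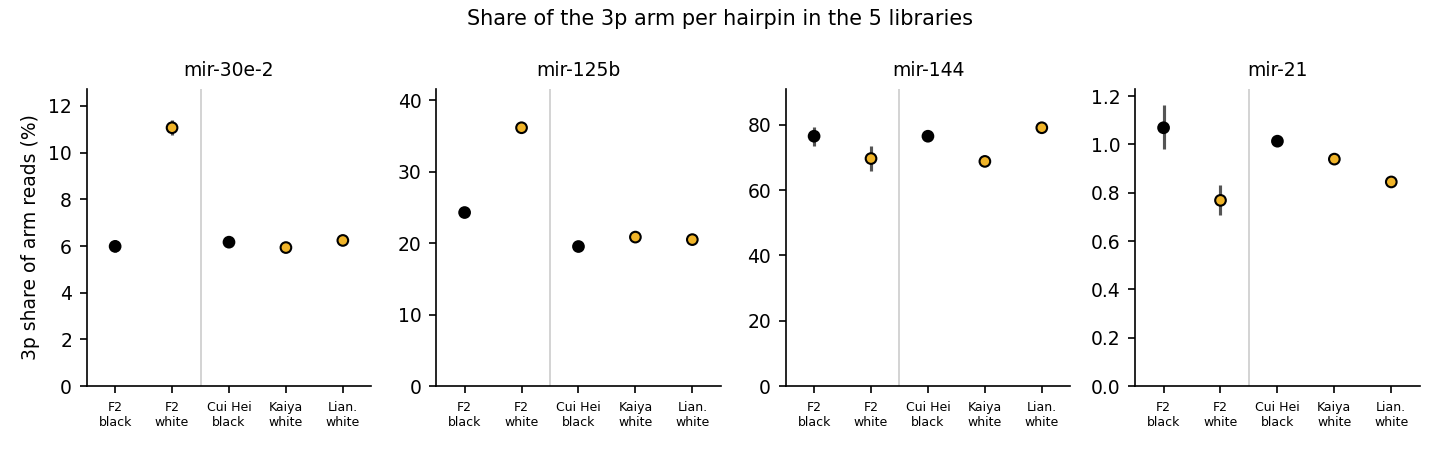
Points give the share of the 3p arm in the arm reads of 4 hairpins, in percent on axes that start at 0, with 95% Clopper-Pearson intervals for the F2 libraries. The pure breeds, right of the grey line, are shown without intervals. For mir-30e-2 (11.1%) and mir-125b (36.1%) the F2 white point lies above the other 4, and for mir-21 (0.768%) below them.

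Shares of all miRNA reads amount to scaling by library size alone, which shifted every ratio by 0.18. A larger share can therefore go with a negative ratio under the main scaling, as for miR-205b-5p (-0.06). In shares, the gains of F2 black over F2 white summed to 6.86 percentage points. F2 black had the larger share of miR-26a-5p, at 6.23% in F2 black and 4.82% in F2 white, and of miR-22-3p, at 6.91% in F2 black and 5.68% in F2 white. miR-204-5p took 0.917% of the reads in F2 black and 0.00978% in F2 white, the third largest gain in points. The largest losses were in miR-146b-1,2-5p, at 7.02% in F2 black and 8.82% in F2 white, in miR-10b-2-5p, at 1.58% in F2 black and 3.08% in F2 white, and in miR-181b-1,2-5p, at 6.37% in F2 black and 7.80% in F2 white. Of these 6 miRNAs, miR-204-5p and miR-10b-2-5p passed the size criterion. Strands listed without a family number were among the abundant ones too, and those below carried the largest share changes of that kind. The first is the miR-199 3p sequence, and the second is that of miR-203, a miRNA of differentiating keratinocytes, less 1 base at the 5′ end, so its capitals lie 1 base past the usual seed.
First: aCAGUAGUcugcacauugguu
Second: uGAAAUGUuuaggaccacuug
The first took 1.39% of the reads in F2 black and 1.04% in F2 white, a log2 ratio of 0.24 (95% interval 0.22 to 0.26). The second took 3.48% in F2 black and 3.77% in F2 white, a log2 ratio of -0.30 (95% interval -0.31 to -0.28), and its level was the highest of the 5 libraries in F2 white.

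The labelled tissue was checked by miRNAs of its cell types. miR-205b-5p, typical of stratified epithelium, took 8.07% of the reads in F2 black and 7.40% in F2 white, and the keratinocyte list as a whole 12.1% in F2 black and 11.6% in F2 white. Of its 7 members 2 were higher and 5 lower in F2 black, and the summed log2 ratio of -0.12 changed sign between scalings, from -0.30 to 0.07. With miR-203 taken by sequence it had 3 of 9 members higher and 6 lower and a sum of -0.16. The mesenchymal list had 3 of 3 members with positive ratios and a sum of 0.10, carried almost wholly by miR-22-3p, and ranged from -0.08 to 0.28. With miR-143 and miR-199 by sequence 6 of 7 members were positive and 1 negative, and the sum was 0.04, from -0.14 to 0.22. The endothelial miR-126 had 2 of 2 with positive ratios and a sum of 0.17, from -0.01 to 0.35. On the list of pigment cell miRNAs 3 of 6 members were higher and 3 lower in F2 black: both arms of miR-204 at the values above, and miR-101-1-5p at 0.09, a value that changed sign under upper-quartile scaling, against miR-101-1,2-3p at -0.30, miR-148a-5p at -0.28 and miR-148a-3p at -0.46. Muscle miR-499-5p was rare, with 119 reads in F2 black and 196 in F2 white, and miR-1, miR-133, miR-206, miR-137, miR-211 and liver miR-122 were not analysed here. On the list of neural miRNAs both miR-9 arms and miR-128-5p were lower, at -0.37 to -0.32, and miR-128-3p was higher.

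The pair of white breeds gives the size of difference between pools of 1 colour but of different breeds. Breed and pool cannot be told apart there, whereas both F2 libraries came from the same cross. Kaiya over Liancheng shares no library with the F2 comparison. There 13 of 103 miRNAs (12.6%) reached the size criterion, 7 higher and 6 lower in Kaiya, against 5 of 104 (4.81%) between the F2 libraries. The median absolute log2 ratio was 0.248 between F2 black and F2 white and 0.271 between Kaiya and Liancheng. For 59 of 102 miRNAs the F2 ratio was the smaller in size, and for 43 the larger. miR-204-5p had -0.21 between the white breeds and 6.37 between the F2 libraries. Other miRNAs fell on either side. The log2 ratio of Kaiya over Liancheng was the larger in size for miR-10b-2-5p (2.26), miR-6564-3p (-2.09), miR-144-3p (1.59), miR-2188-5p (3.37) and miR-460a-5p (-2.31). It was the smaller for miR-187-3p (-0.28), miR-196-1,2,3-5p (0.13), miR-30e-2-3p (0.05), miR-125b-3p (0.26), miR-146b-1,2-5p (0.07), miR-181b-1,2-5p (-0.15) and miR-148a-3p (-0.21).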

How the data were processed

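Raw read counts per mature miRNA and per hairpin were used as deposited by the authors. Per the design text and the submitters' processing notes the reads were analysed with miRDeep2 2.1.2, Bowtie 0.12.2 and FastQC. The sources used here name no genome build. A name on several lines was taken once, with its highest count. Counts were scaled by TMM (edgeR 4.0.16, R 4.3.3) over the 5 libraries on 114 miRNAs kept by filterByExpr with colour as group. Ratios were formed where the F2 libraries together held at least 50 reads of a miRNA, with exact Clopper-Pearson intervals at the 95% level, and levels have exact Poisson intervals. The calculations were tested on simulated data. No test was made with 1 library a side, and intervals cover counting error only. A floor of 3 reads was 1.45 CPM in F2 black and 1.15 CPM in F2 white.

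Named are the miRNAs at the size criterion, the 10 highest and 10 lowest among those of 200 reads or more, the 10 most abundant, and the highest, lowest and most abundant members of each family or cluster. The unnumbered arms, the strands renamed by sequence and the miRNAs of the arm shares were picked after their values were seen. Families follow the number in the name, clusters and cell types follow lists of miRNAs known from vertebrates, matched by listed name and, as an alternative chosen after seeing the data, by sequence. The comparison, lists and named miRNAs were chosen with earlier results of these data known. Alternatives were 6 other scalings, other read minimums, summed lines and hairpin totals.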

Additional observations from a re-analysis of the deposited data

Results flagged for a closer look

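Some deposited hairpins hold reads that were counted under no listed mature strand, which none of the comparisons above uses. They are given where they exceeded the floor of 3 reads. By far the most were in mir-27b-1, with 57074 in F2 black and 92698 in F2 white, a log2 ratio of -0.37. mir-146b-1 had 233 in F2 black and 284 in F2 white, and mir-146b-2 had 78 in F2 black and 77 in F2 white. mir-18a-1 had 35 in F2 black and 40 in F2 white, mir-27b-2 had 24 in F2 black and 34 in F2 white, and mir-214 had 8 in F2 black and 7 in F2 white. A hairpin without a family number had 18 in F2 black and 40 in F2 white. Above the floor in F2 black alone, mir-449c-2 had 5 in F2 black and 2 in F2 white, and mir-19a had 4 in F2 black and 0 in F2 white. Above it in F2 white alone, mir-10b-2 had 2 in F2 black and 5 in F2 white. In the same order mir-222a had 1 and 4, and mir-6595 had 0 and 4. Not every hairpin copy has a listed 3p strand. For miR-18a it is miR-18a-2-3p alone, with 38 reads in F2 black and 42 in F2 white. For miR-146b it is miR-146b-2-3p alone, with 235 reads in F2 black and 313 in F2 white. That of miR-27b is listed without a copy number. Whether the uncounted reads came from an arm missing from the lists was not tested.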

How the results depend on the processing

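Scaling moved every F2 ratio by -0.18 (upper quartile) to 0.18 (library size alone), so calls near the size criterion depend on it, while both miR-204 arms passed it under all 7 scalings. The count of higher miRNAs, 3 as reported, was 7 with library size alone, 6 with TMM without the most abundant miRNA and 5 with hairpin totals, and upper-quartile scaling gave 2 higher and 3 lower. TMM from the F2 libraries alone and TMM without the miR-204 arms each added miR-144-3p to the 3 reported. The count of lower miRNAs, 2 as reported, was 1 with RLE, with TMM from the F2 libraries alone, with TMM without the miR-204 arms, with TMM without the most abundant miRNA and with summed lines, 0 with library size alone and with hairpin totals, and 4 with a minimum of 10 reads. Families at the criterion, 1 as reported, were 2 with library size alone and 2 without the member with most reads. The count of clusters at the criterion was 0 under every alternative run, with members taken by sequence included. F2 white was the library farther from the pure breeds for 75 to 79 miRNAs under 5 other scalings, a check chosen after seeing the data. No paired analysis was possible because each colour has 1 library. Depth limits rare arms such as miR-204-3p, with 2 reads in F2 white.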

Other observations

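The F2 ratio, taken with its sign, had little relation to simple features of the miRNA. Over 102 miRNAs with miR-204 left out, Spearman's rho of the log2 ratio was -0.04 with GC content, 0.19 with length and -0.19 with reads. These are descriptions across miRNAs of the same 2 libraries, and no p is given. The median log2 ratio was 0.04 over the 51 strands from the 5p arm and -0.17 over the 51 from the 3p arm.

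Of the miRNAs with at least 10 reads but below the minimum of 50, the ones with a log2 ratio beyond 1 or -1 are given here. miR-460a-3p had 8 reads in F2 black and 2 in F2 white, a log2 ratio of 2.33 (95% interval 0.01 to 5.61), and lay on the same side as its major arm. The heart and slow muscle strand miR-499-3p had 4 reads in F2 black and 11 in F2 white, a log2 ratio of -1.13 (95% interval -3.23 to 0.63). A strand without a family number had 4 reads in F2 black and 14 in F2 white, a log2 ratio of -1.47 (95% interval -3.53 to 0.20).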
